A study of Homo sapiens with 57 samples.

Results

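HIF1A, ARNT and VEGFA are 3 of the 412 genes whose mRNA was counted in HK-2 cells, an established line of human proximal tubule epithelium, after exposure to extracts of the 3 herbs of a Chinese medicine recipe. They were taken by their Entrez identifiers (3091, 405 and 7422) from the counts of all 57 wells, as the pair of subunits of a hypoxia factor and a gene that it controls. The trio was selected on its values with each herb against DMSO (the fold changes and criteria below were already known), so the herb values of these genes are given as a description and without a test. The wells were counted by RASL-seq, in which pairs of short probes anneal to mRNA, are ligated when they lie side by side, and are amplified and sequenced. Roucongrong, Yinyanghuo and Gusuibu, each a crude extract made with ethanol, were applied at 100 μg/mL to 3 wells each for 24 h, and each herb had a set of 16 wells with 0.50% DMSO of its own. All wells held the same cell line, seeded at 3000 cells, and no other treatment is listed. A DMSO content is given for the DMSO wells only, so whether the herb wells also held DMSO is not stated. Nothing in the labels says that wells came from separate cultures, so the spread between wells may be technical.

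HIF1A is the subunit whose protein is made all the time and destroyed while oxygen is plentiful, so its mRNA does not report the activity of the factor. ARNT, also called HIF1β, is the partner it needs to bind DNA, and is likewise the partner of the aryl hydrocarbon receptor AHR. VEGFA is a secreted growth factor that is switched on by the pair in hypoxia and acts mainly through the receptor KDR on endothelium; tubule cells are one of its sources in the kidney.

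The pair binds DNA at the short core ACGTG or GCGTG. The 250 bases before the start of HIF1A and of ARNT are shown because the gene for each subunit can itself be read for that core; they are taken from RefSeq on GRCh38.p14, 5′ to 3′ on the strand of the gene, with a core in capitals. HIF1A lies on the plus strand (chr14:61695263-61695512) and ARNT on the minus strand (chr1:150876600-150876849).
HIF1A: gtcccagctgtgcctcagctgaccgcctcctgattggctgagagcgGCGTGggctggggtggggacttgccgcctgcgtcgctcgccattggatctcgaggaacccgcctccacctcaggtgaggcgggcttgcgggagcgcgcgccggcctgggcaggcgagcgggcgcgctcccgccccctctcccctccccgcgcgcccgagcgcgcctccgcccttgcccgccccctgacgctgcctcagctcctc
ARNT: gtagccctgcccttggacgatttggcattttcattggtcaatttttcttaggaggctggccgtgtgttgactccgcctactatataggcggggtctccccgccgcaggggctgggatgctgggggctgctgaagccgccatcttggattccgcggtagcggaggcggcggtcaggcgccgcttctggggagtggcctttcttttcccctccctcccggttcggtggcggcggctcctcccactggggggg
In the HIF1A window there was 1 match, GCGTG, beginning 204 bases before the start, and the ARNT window held none on either strand. A window before a second HIF1A start further along the gene (chr14:61697462-61697711) held none either. Of 35116 such windows in the table, 43.2% held at least 1 of the cores on some strand, 18.5% ACGTG and 32.2% GCGTG. The forward and reverse forms of ACGTG overlap where the letters read CACGTG. These matches describe letters only.

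Total counts ran from 13581 to 75969 per well, with a median of 35239, and the 3 Yinyanghuo wells had 21916, 13581 and 35307. HIF1A was counted at 132 to 1387 reads per well and VEGFA at 59 to 405, whereas ARNT had 0 to 19. Levels are given as CPM, counts scaled to a common library total by TMM within a set, and are not compared between genes, since the probes of each gene may work with different efficiency. Of the markers looked for in tubule cells the panel held CDH2 and VIM, neither specific to epithelium, and both were abundant in every set. Among markers of other cells the panel held ITGB2, ITGAM, CDH5 and KDR. Of these, ITGAM and CDH5 stood at a median of 0 counts in the DMSO wells of each set, while the leukocyte integrin ITGB2 had medians of 12.5, 8 and 13 counts in the Roucongrong, Yinyanghuo and Gusuibu sets and KDR of 8 to 8.5. In whole wells, fewer cells and less RNA per cell cannot be told apart.

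HIF1A stood lower than DMSO in the Roucongrong wells, level with it in the Yinyanghuo wells and higher in the Gusuibu wells. With Roucongrong the 3 wells had 10279, 15615 and 13511 CPM, and the 16 DMSO wells ran from 12079 to 22673 with a median of 15816. All 3 treated wells lay below that median, which held for 15.9% of the panel, and the groups overlapped, with 9 DMSO wells above the highest treated well. The means were 13135 ± 2688 (SD, n = 3) and 16382 ± 3022 (SD, n = 16), a log2 fold change of -0.32 (SE 0.15), or a fold of 0.803. Leaving out 1 treated well at a time moved it between -0.46 and -0.17, and the lower value came without well 2, the highest of the 3.

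With Yinyanghuo, HIF1A had 11041, 9320 and 9807 CPM, against 8056 to 12234 with a median of 10316 in the DMSO wells. The treated wells sat in the middle of the DMSO range on both sides of its median. The log2 fold change was -0.00 (SE 0.12), and it was 0.10 with RLE scaling, under which the panel as a whole also stood higher. With Gusuibu the wells had 15367, 12085 and 12146 CPM, and the DMSO wells 8181 to 14241 with a median of 10975. All 3 treated wells were above the median, as were those of 12.2% of the panel, and 14 of the 16 DMSO wells were below the lowest of them. The means were 13199 ± 1877 (SD, n = 3) and 10954 ± 1321 (SD, n = 16), a log2 fold change of 0.26 (SE 0.11). It fell to 0.14 without well 1, the shallowest of the 3 at 18177 counts.

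**Figure D1:**
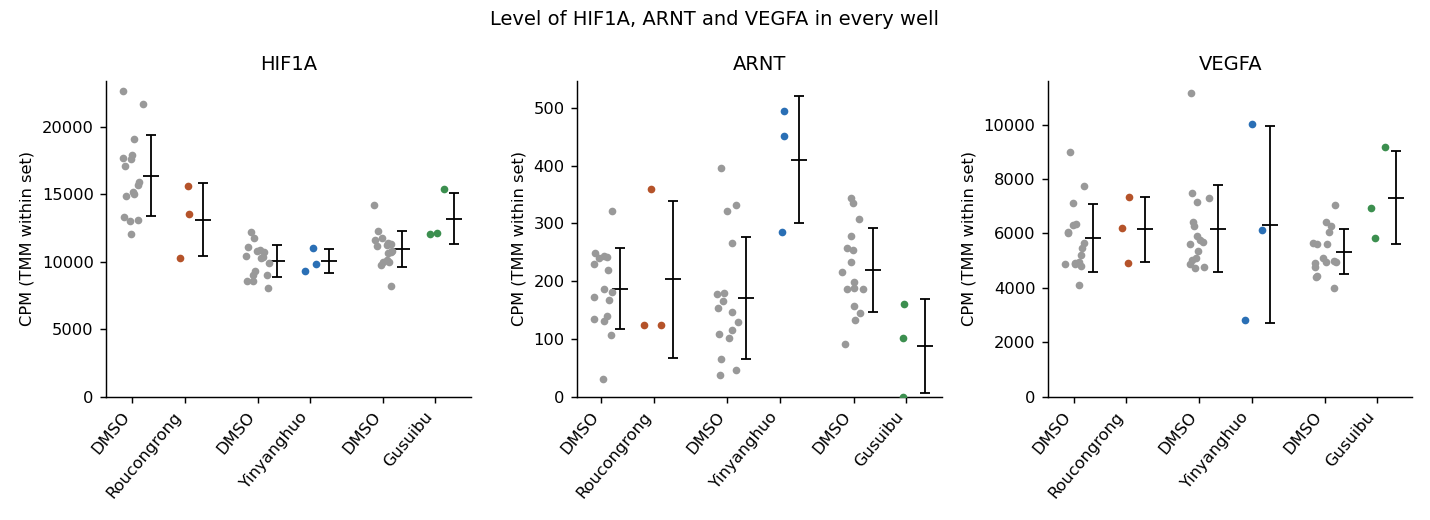
Level of HIF1A, ARNT and VEGFA in every well, in CPM scaled by TMM within each set (vertical axes, linear from 0). Grey points are the 16 DMSO wells of a set, coloured points the 3 treated wells, and bars the mean ± SD; the DMSO wells of the Roucongrong set hold HIF1A between 12079 and 22673 CPM, and 1 Gusuibu well holds ARNT at 0.

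HIF1A also differed between sets where no herb was present. The DMSO wells of the 3 sets had the same treatment, and they were compared with each other in a fit of 48 wells that no herb well entered. HIF1A averaged 17061 ± 2962 CPM in the Roucongrong set, 10690 ± 1288 in the Gusuibu set and 9804 ± 1171 in the Yinyanghuo set (SD, n = 16 each). Every one of the 16 Roucongrong DMSO wells lay above all 16 of the Yinyanghuo set, and 14 lay above all 16 of the Gusuibu set.

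In that fit the log2 difference of HIF1A between Roucongrong and Yinyanghuo DMSO wells was 0.80 (SE 0.07; adjusted p = 8.16e-14 by edgeR's quasi-likelihood F test with Benjamini-Hochberg adjustment over 412 genes). It ranked second of 412 by p, after IL6, a cytokine of inflammation (0.82, adjusted p = 3.55e-14). Between Roucongrong and Gusuibu DMSO wells it was 0.67 (SE 0.07; adjusted p = 1.46e-11), rank 5. Gusuibu and Yinyanghuo DMSO wells differed by 0.12 (SE 0.07; adjusted p = 0.325), a difference not told apart from the spread between wells. Across the panel, 21.4%, 22.6% and 5.83% of genes had an adjusted p under 0.05 in these 3 comparisons. What differed between the sets besides the herb is not stated, so a herb's HIF1A level and its set cannot be told apart when herbs are compared.

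**Figure D2:**
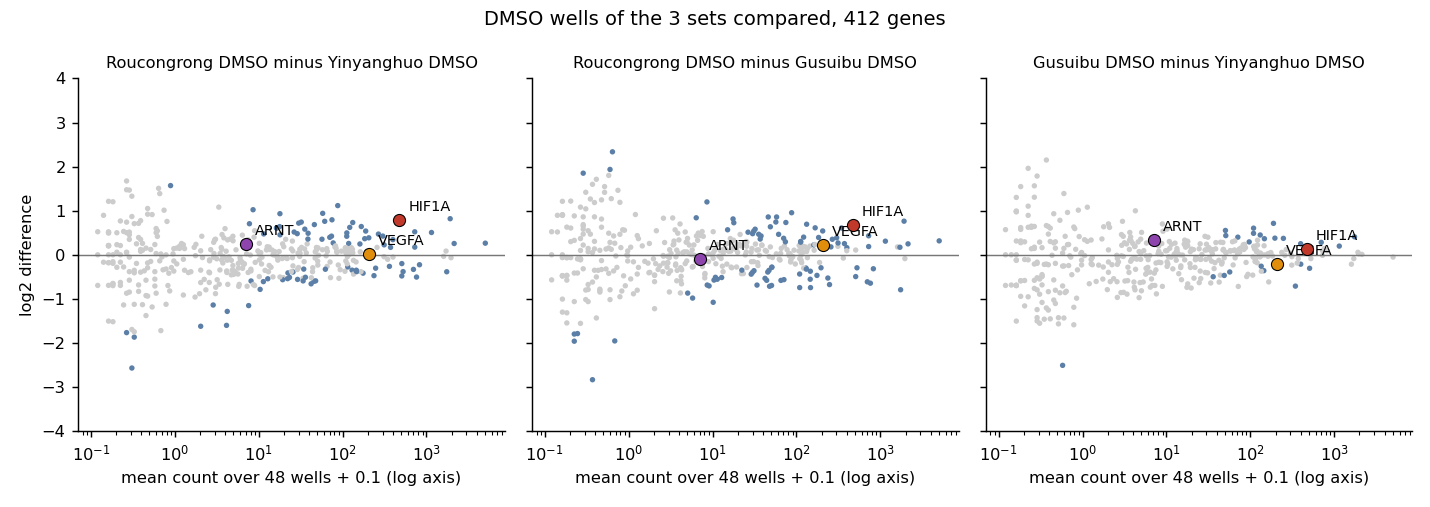
Log2 difference of each of 412 genes between the DMSO wells of the 3 sets (vertical axis) against its mean count over the 48 wells plus 0.1 (log axis). Blue points have an adjusted p under 0.05 and grey points do not; HIF1A stands at 0.80 and 0.67 in the first and second panels and at 0.12 in the last, while VEGFA and ARNT lie within 0.33 of 0 in all of them.

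The choice of control wells therefore mattered for HIF1A. With DMSO wells from the other sets as controls, the Roucongrong wells had a log2 difference of 0.40 (SE 0.11) in place of -0.32. The Yinyanghuo wells had -0.49 (SE 0.22) in place of -0.00, and the Gusuibu wells -0.05 (SE 0.26) in place of 0.26. All 3 values moved by more than the SD between the treated wells, and the first and the last changed sign. In a common scaling of all 57 wells, the Roucongrong wells averaged 13831 CPM and the Gusuibu wells 13199 CPM, closer to each other than to the DMSO wells of either set, which averaged 17074 and 10698 CPM.

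**Figure D3:**
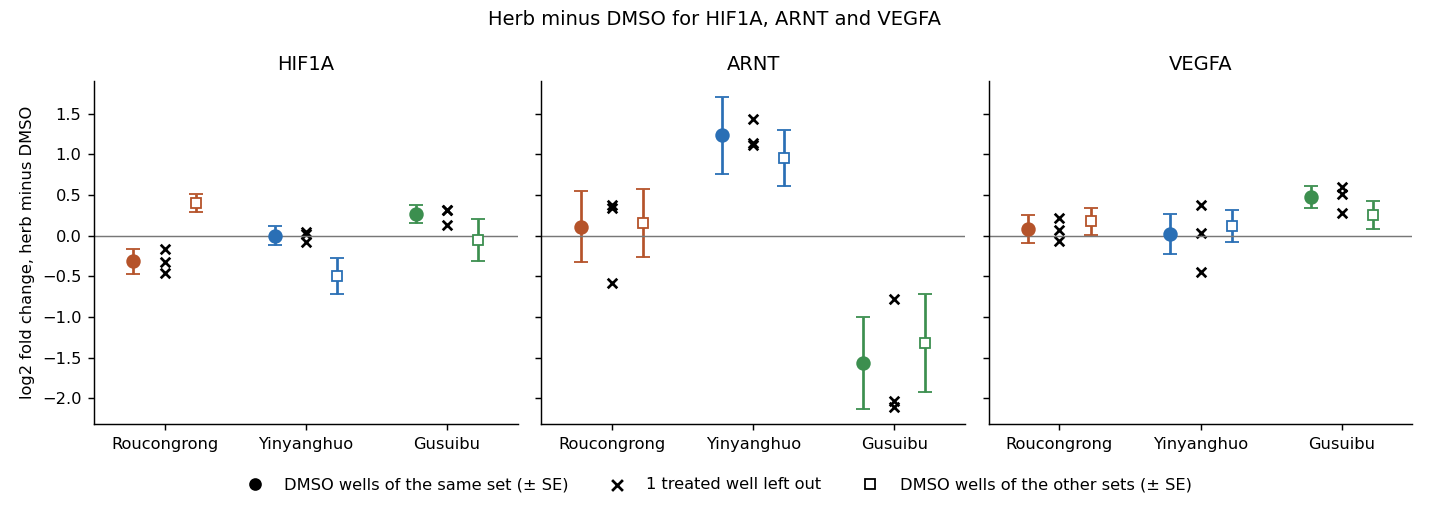
Log2 fold change of HIF1A, ARNT and VEGFA with each herb (vertical axis). Filled circles use the set's own 16 DMSO wells (± SE), crosses leave out 1 treated well, and open squares use DMSO wells from the other sets (± SE); with Roucongrong, HIF1A is at -0.32 by the first comparison and 0.40 by the last.

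ARNT stood near the limit of detection, and 2 of its 3 herb comparisons met the study's criteria for a changed gene, an unadjusted p under 0.05 with a fold change above 1.5 or below 0.67. It was higher with Yinyanghuo and lower with Gusuibu, and these were the only 2 of the 9 herb comparisons of the trio to meet the criteria, which 10.2% of genes met with Roucongrong, 15% with Yinyanghuo and 9.45% with Gusuibu. Calls toward higher levels made up 7.75% of genes with Yinyanghuo, and calls toward lower levels 1.74% with Gusuibu. Because the trio was chosen with these values known, nothing is read from that count. Where genes of the trio are said to meet or miss the criteria, here and below, this describes their values and is no test. No gene of the trio had treated wells free of overlap with the DMSO wells of its set, a separation that 2.24%, 4.25% and 1.49% of the panel showed.

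With Yinyanghuo, ARNT had 6, 7 and 16 counts, and the DMSO wells of that set had 1 to 12 with a median of 4. These counts are 286, 494 and 451 CPM, with exact 95% Poisson intervals of 105 to 621, 199 to 1018 and 258 to 732 CPM, against a median of 150.03 and a maximum of 395 CPM in the DMSO wells. All 3 wells were above the DMSO median, as for 11.2% of the panel, but the first lay inside the DMSO range. The means were 410.2 ± 110 (SD, n = 3) and 171 ± 105 CPM (SD, n = 16), a log2 fold change of 1.24 (SE 0.47). The criteria were no longer met without well 2 or without well 3. Over all 3 ways of leaving out a treated well, the log2 fold change ran from 1.12 to 1.44.

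With Gusuibu the counts of ARNT were 3, 4 and 0, against 4 to 13 with a median of 7.5 in the DMSO wells. In CPM the treated wells had 160.1, 102 and 0, and the DMSO wells 91.4 to 344 with a median of 207. The well with 0 was the deepest of the 3, at 46019 counts, and its interval reached 78.6 CPM, below the lowest DMSO well. All 3 wells lay below the DMSO median, as for 16.9% of the panel. The wells with 3 and 4 counts lay inside the DMSO range. A count of 3 was taken as the floor, and counts at or under it still enter the CPM and the folds. The log2 fold change was -1.56 (SE 0.57); without well 3 it was -0.78 and the criteria were not met.

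With Roucongrong, ARNT had 4, 5 and 13 counts against 1 to 19 in the DMSO wells, or 125, 125 and 360 CPM against a median of 183. One well was above the DMSO median and the others below it. The log2 fold change was 0.11 (SE 0.43), and it ran from -0.59 to 0.38 as treated wells were left out. Intervals and floors cover counting error only, since the reads carry no molecular identifiers.

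In the DMSO wells, the spread of ARNT was close to what counting alone gives. Its CV between the wells of the Roucongrong, Yinyanghuo and Gusuibu sets was 36.5%, 60.4% and 33.6%, where Poisson counting would give 35.5%, 46.0% and 37.4%. For HIF1A the CVs were 17.4%, 11.9% and 12.1% where counting would give 3.84%, 5.95% and 5.19%. For VEGFA they were 20.2%, 24.3% and 15.3% where counting would give 6.50%, 7.69% and 7.53%. HIF1A and VEGFA thus varied between wells by more than counting gives in every set, and ARNT at most in the Yinyanghuo set.

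ARNT did not differ detectably between DMSO sets at this depth. The log2 differences were 0.23 (SE 0.24; adjusted p = 0.589) for Roucongrong minus Yinyanghuo and -0.10 (SE 0.23; adjusted p = 0.831) for Roucongrong minus Gusuibu, by edgeR as above. For Gusuibu minus Yinyanghuo the difference was 0.33 (SE 0.24; adjusted p = 0.473).

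VEGFA was close to DMSO with Roucongrong and Yinyanghuo and higher with Gusuibu, though by less than 1.5-fold. With Gusuibu it had 5816, 9192 and 6947 CPM, and the DMSO wells ran from 3996 to 7049 with a median of 5047. All 3 wells were above the median, as were those of 12.2% of the panel, and only the second was above every DMSO well. The means were 7318 ± 1718 (SD, n = 3) and 5322 ± 828 CPM (SD, n = 16), a log2 fold change of 0.47 (SE 0.14), or a fold of 1.39. It was 0.60 without well 1, past the criteria, and 0.27 without well 2, the one with the highest VEGFA.

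With Roucongrong, VEGFA had 6198, 7334 and 4928 CPM against 4114 to 8984 with a median of 5554 in the DMSO wells. The log2 fold change was 0.08 (SE 0.17). With Yinyanghuo it had 2808, 10027 and 6144 CPM, on counts of 59, 142 and 218, against 4730 to 11181 with a median of 5740. The first of these wells was below every DMSO well and the second above all but the highest, and they cancelled in a log2 fold change of 0.02 (SE 0.24), which ran from -0.44 to 0.38 as wells were left out.

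No difference of VEGFA between DMSO sets passed the test. The log2 differences were 0.02 (SE 0.09; adjusted p = 0.937) for Roucongrong minus Yinyanghuo, 0.23 (SE 0.09; adjusted p = 0.0699) for Roucongrong minus Gusuibu and -0.21 (SE 0.09; adjusted p = 0.162) for Gusuibu minus Yinyanghuo, by edgeR as above. The sign of the first turned under other scalings and filters. The difference for Roucongrong minus Gusuibu passed when the well number, whose meaning is not stated, was used as a block (given below).

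No relation among HIF1A, ARNT and VEGFA was detected in the DMSO wells. In 9 relations, 3 pairs in 3 sets of 16 wells, Pearson's r of log2 CPM ran from -0.22 to 0.31, and every adjusted p was 0.849 by a two-sided permutation test. The relations with ARNT could hardly show a link, since its spread was close to that of counting alone. With 16 wells a set, weaker relations of the other pair could be missed too. The subunit and its target, HIF1A and VEGFA, had r = 0.31 (p = 0.245; Spearman's rho 0.38, p = 0.146; permutation) in the Roucongrong set, and r = 0.10 without the 2 wells farthest from the median. In the Yinyanghuo set r was -0.07 (p = 0.796; rho -0.03, p = 0.927; permutation), and in the Gusuibu set 0.10 (p = 0.700; rho -0.01, p = 0.968; permutation).

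Other genes of the panel varied with HIF1A and VEGFA much more closely. Over the 48 DMSO wells with set means removed, and among the 182 genes whose counts averaged 10 or more, those most like VEGFA were F5, a coagulation factor (r = 0.73), ANXA1, an anti-inflammatory annexin (r = 0.72), and KAT2B, a histone acetyltransferase (r = 0.71). Each was at 0.58 or above in every set taken alone. The genes most like HIF1A were IL6 (r = 0.71), the small GTPase CDC42 (r = 0.65) and CAV1, which forms caveolae (r = 0.62), though less evenly so: in the Yinyanghuo set alone these were 0.40, 0.26 and 0.54, and CAV1 was at 0.26 in the Gusuibu set. For ARNT no close match was found, with TWIST1 at 0.26, PRKACB at 0.25 and TIMP1 at 0.24. Its spread, close to that of counting alone, leaves little room for one to show. All these wells share the scaling of their libraries, and the correlations are a description.

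In 8 of the 9 treated wells, VEGFA and the mean of the 3 genes most like it lay on the same side of the set's DMSO median. HIF1A and the mean of its own 3 likest genes also did so in 8 of 9. How often other genes do so was not counted. In Gusuibu well 2, VEGFA was 0.97 above the set's DMSO median on the log2 scale of total-scaled CPM, and the mean of F5, ANXA1 and KAT2B was 2.01 above it. In Yinyanghuo well 2, VEGFA was 0.90 and those genes 2.13 above. The lowest VEGFA well, Yinyanghuo well 1 at -1.03, had those genes at -0.35, further down in VEGFA than any DMSO well. The exception was Gusuibu well 1, with VEGFA at 0.27 and those genes at -0.26. Whether this shared variation accounts for the VEGFA value with Gusuibu was not tested.

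Taken singly, the genes closest to HIF1A parted from it with Yinyanghuo. IL6 had 2417, 1178 and 3909 counts with that herb against 808 to 1887 in the DMSO wells, which is 1.33 (SE 0.08) as a log2 fold change. CAV1 fell by 0.95 (SE 0.17; adjusted p = 0.000294) and CDC42 by 0.37 (SE 0.09; adjusted p = 0.00879) on the log2 scale, by edgeR over 400 genes. HIF1A, at -0.00, stayed between them.

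**Figure D4:**
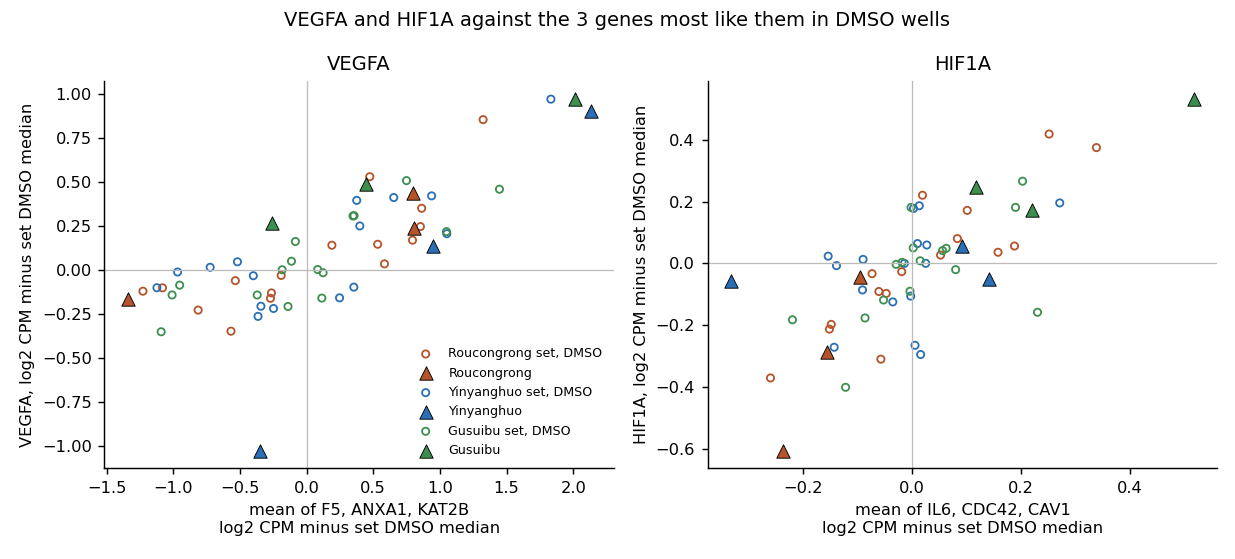
VEGFA (left) and HIF1A (right) in each well against the mean of the 3 genes most like it, all as log2 CPM minus the DMSO median of the set. Open circles are DMSO wells and triangles treated wells; the second wells of Gusuibu and Yinyanghuo stand at the top right of the VEGFA panel, at 0.97 and 0.90, and Yinyanghuo well 1 at the bottom, at -1.03.

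Oxygen sensing itself was barely represented on the panel. Of 26 genes listed for the other HIF subunits, the oxygen sensors and HIF turnover, the panel held 2, HSP90AA1 and HSP90AB1, the chaperones that protect HIF1A protein. Neither met the criteria with any herb. Their log2 fold changes were 0.65 (SE 0.32) and 0.38 (SE 0.23) with Roucongrong, 0.46 (SE 0.29) and 0.29 (SE 0.22) with Yinyanghuo, and -0.55 (SE 0.30) and -0.39 (SE 0.24) with Gusuibu.

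Of 16 genes listed as coactivators and corepressors of HIF, not all of them coregulators in the strict sense, 8 were on the panel. With Roucongrong, Yinyanghuo and Gusuibu, 1, 2 and 0 of these 8 met the criteria. That is 12.5%, 25% and 0%, beside 10.2%, 15% and 9.45% of all genes. The acetyltransferases EP300 and CREBBP, which HIF1A recruits to its targets, did not meet the criteria with any herb. With Roucongrong 1 rose, SIRT3, a mitochondrial deacetylase rather than a coregulator (log2 fold change 1.23, SE 0.54; edgeR p = 0.0305, adjusted p = 0.271). With Yinyanghuo 2 fell, the deacetylase HDAC1 (-0.76, SE 0.32; edgeR p = 0.0233, adjusted p = 0.166) and the coactivator NCOA2 (-1.66, SE 0.80; edgeR p = 0.0475, adjusted p = 0.238). With Gusuibu none of the 8 met the criteria by edgeR. Each of these 3 calls was lost without at least 1 treated well. The list's median log2 fold change was -0.05, -0.29 and 0.11 with the 3 herbs in that order, beside -0.04, -0.13 and 0.04 over all genes.

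The other partner of ARNT, the receptor AHR, gave log2 fold changes of 0.01 (SE 0.46), -0.39 (SE 0.54) and 0.36 (SE 0.28) with Roucongrong, Yinyanghuo and Gusuibu, and did not meet the criteria. Its target CYP1B1, the only other gene of 13 in that list on the panel, had no well above the floor of 3 counts in the Gusuibu set, where it nominally met the criteria, and no fold is given.

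Of 47 other genes that HIF can switch on, 11 were on the panel, none of them a glycolytic enzyme, and most did not meet the criteria with any herb. HMOX1, the heme oxygenase, rose with Roucongrong from 5162 ± 848 CPM (SD, n = 16) to 18813 ± 4021 (SD, n = 3), a log2 fold change of 1.87 (SE 0.13; adjusted p = 6.15e-12 by edgeR), and no treated well overlapped the DMSO wells. It rose with Yinyanghuo too, from 3805 ± 638 to 8043 ± 1893 CPM (1.07, SE 0.15; adjusted p = 1.28e-05 by edgeR), a call lost with DMSO wells from the other sets as controls (0.44), and gave 0.17 (SE 0.15; adjusted p = 0.577 by edgeR) with Gusuibu. HMOX1 is also switched on by oxidants and heme through another factor. In the DMSO wells HMOX1 differed between sets by 0.54 for Roucongrong minus Yinyanghuo (SE 0.09; edgeR).

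CDKN1A, an inhibitor of the cell cycle, rose with Yinyanghuo (1.53, SE 0.31; adjusted p = 0.00127 by edgeR), from 267 ± 101 to 777 ± 97.0 CPM. It fell with Roucongrong (-0.78, SE 0.36; edgeR p = 0.0416, adjusted p = 0.312), a call lost without well 1. The growth factor TGFA fell with Yinyanghuo (-0.59, SE 0.28; edgeR p = 0.0449, adjusted p = 0.230), and TXNIP, which binds thioredoxin, rose with Gusuibu (0.92, SE 0.35; edgeR p = 0.0125, adjusted p = 0.136). The first of these calls was lost with RLE scaling (-0.51) and the second without well 3 (0.81). In all, 2 of 9 tested, 3 of 11 and 1 of 11 of these genes met the criteria with Roucongrong, Yinyanghuo and Gusuibu, or 22.2%, 27.3% and 9.09% beside 10.2%, 15% and 9.45% of all genes. As treated wells were left out the counts ran from 1 to 4, 2 to 4 and 0 to 2, with 1 without Roucongrong well 1, 4 without Roucongrong well 2, 2 without Gusuibu well 1 and 0 without Gusuibu well 3. Their median log2 fold changes were -0.22, -0.49 and 0.05, and the medians over all genes were as given above. In these wells HIF1A gave -0.32, -0.00 and 0.26.

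**Figure D5:**
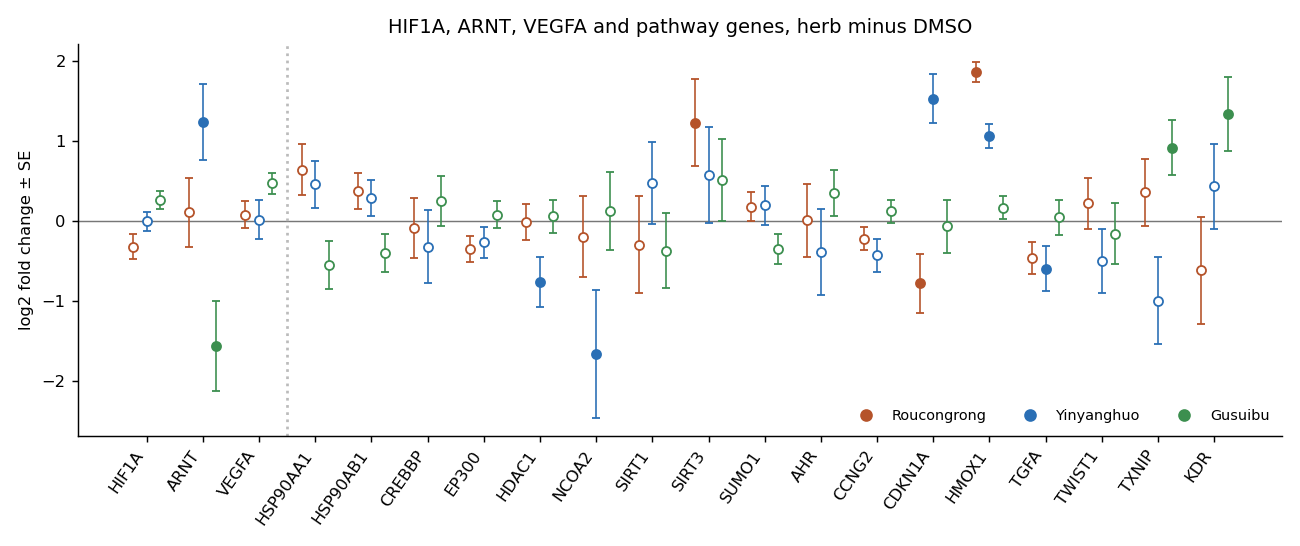
Log2 fold change ± SE with each herb for HIF1A, ARNT and VEGFA (left of the dotted line) and for the genes of the HIF, ARNT and VEGF receptor lists whose mean count reached 5 in some set (right of it). Filled points met the study's criteria and open points did not; HMOX1 stands at 1.87 with Roucongrong and 1.07 with Yinyanghuo, and KDR at 1.34 with Gusuibu.

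KDR, the receptor through which VEGFA acts, was the only VEGF receptor of the panel and was near the limit of detection, with a median of 8 to 8.5 counts in the DMSO wells of each set. It rose with Gusuibu (1.34, SE 0.47; edgeR p = 0.00712, adjusted p = 0.101), with 4, 40 and 15 counts against 2 to 21, and the value was 0.39 without well 2. With Roucongrong it gave -0.61 (SE 0.67) and with Yinyanghuo 0.44 (SE 0.53). Among the other markers of foreign cells, ITGB2 gave -0.40 (SE 0.40) with Gusuibu, and CDH5 and ITGAM had 0 to 2 counts in the treated wells.

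Signalling below KDR was well covered, with 75 of 92 listed genes on the panel, and the share that met the criteria was near that of the whole panel. With Gusuibu 4 rose and 2 fell of 74 tested, or 8.11% beside 9.45% of all genes, of which 7.71% rose and 1.74% fell. An adjusted p under 0.05 was reached by 2.99%, 7.5% and 5.22% of the panel with Roucongrong, Yinyanghuo and Gusuibu. Phospholipase PLCG1, which binds the activated receptor, rose by 1.40 (SE 0.36; adjusted p = 0.0187 by edgeR), with 11, 74 and 38 counts, and the kinase PTK2B by 1.30 (SE 0.31; adjusted p = 0.0135 by edgeR), with 20, 94 and 47 counts. Both were highest in well 2, and were 0.75 and 0.74 without it, where neither met the criteria. VEGFA and KDR were highest in that well too, and so were F5, ANXA1 and KAT2B, which are not in this list. PIK3R1, a regulatory subunit of PI3 kinase, rose by 0.74 (SE 0.33; adjusted p = 0.244 by edgeR). The small heat shock protein HSPB1 (-0.58, SE 0.13; adjusted p = 0.0120 by edgeR) and the kinase AXL (-0.62, SE 0.19; adjusted p = 0.0445 by edgeR) fell, and both missed the fold criterion with RLE scaling (-0.52 and -0.57). RHOA, with an adjusted p of 0.00651 by edgeR, fell by 0.47, less than the fold criterion asks.

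With Yinyanghuo, where VEGFA gave 0.02, 3 of these 75 genes rose and 9 fell, or 16% beside 15% of all genes, of which 7.75% rose and 7.25% fell. Those that fell with an adjusted p under 0.05 included the adhesion and membrane genes ITGAV (-1.18, SE 0.24), CAV1 (-0.95), CTNND1 (-0.86) and the adaptor NCK1 (-0.69), with WASF1 (-0.69). Without well 2, NCK1 and WASF1 no longer met the criteria. RASA1 had 0 counts in every treated well against 0 to 8 in the DMSO wells. PAK3 (-1.55) and PTK2 (-0.75) fell at an adjusted p of 0.122 and 0.184 by edgeR. ROCK1 rose (1.63, SE 0.71; adjusted p = 0.184 by edgeR), while CYBB and ELMO1 had no well above the floor. CDC42 and RHOA (-0.43; adjusted p = 0.0130 by edgeR) fell by less than the fold criterion.

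With Roucongrong, 4 rose and 2 fell of 75, or 8% beside 10.2% of all genes, of which 7.21% rose and 2.99% fell. NCF1 (4.47, SE 0.90; adjusted p = 0.00314 by edgeR), HRAS (2.42, SE 0.70; adjusted p = 0.0521 by edgeR), PIK3R2 (1.67, SE 0.79) and ELMO1 (2.79, SE 0.92) rose on mean counts under 5, and CYBA (-0.96, SE 0.39) and THEM4 (-0.72, SE 0.27) fell. The 4 rises rested largely on single wells, NCF1 having 0, 0 and 17 counts and HRAS 7, 1 and 27. As treated wells were left out, CYBA ran from -1.20 to -0.71 and THEM4 from -1.11 to -0.55. Without well 3 the log2 fold changes of NCF1, HRAS and ELMO1 were -1.33, 0.93 and 1.25, and without well 1 that of PIK3R2 was 0.42. The count of the list was 1 without well 3 and 10 without well 2. The list's median log2 fold change was 0.04, -0.20 and -0.03 with Roucongrong, Yinyanghuo and Gusuibu.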

How the data were processed

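The authors deposited raw counts of ligated RASL-seq probe reads per gene for each of 57 wells, without normalization. The submitters' processing notes name Bowtie2 2.2.4 and DESeq2 1.22.1, the labels say that only read 1 was used, and the paper describes a filter on more than 3 mismatches. The genome build is not given in the sources used here, and probe sequences were not used here, so overlap with neighbouring or antisense transcripts was not examined. All 412 Entrez identifiers matched a symbol, and no well was left out. No 2 wells held identical counts, and replicate wells differed by at least 1.69 in chi-squared per degree of freedom.

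Counts were fitted over all genes with a nonzero total by edgeR 4.0.16 in R 4.3.3 (TMM, quasi-likelihood F test), for each herb with its own DMSO wells and for the 48 DMSO wells alone. Standard errors are the log2 fold change divided by the root of F. Log2 CPM used a prior count of 2. Correlations had 100000 permutations. Alternatives were RLE scaling, total counts, DESeq2 1.42.0, a minimum mean count of 5, filterByExpr, 1 fit of 57 wells, other DMSO wells, leaving out each treated well and a block on the well number. Figures used matplotlib 3.10.9.

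Genes named are the trio, genes of the lists that met the criteria or had an adjusted p under 0.05, and for each of the trio the 3 most correlated genes whose counts averaged 10 or more. A few further list genes (EP300, CREBBP, AHR, HSP90AA1, HSP90AB1) and markers were named by role after their values were seen. The genes and lists were chosen with earlier results of these data known. Some genes that this rule names are not reported here, though the counts include them.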

Additional observations from a re-analysis of the deposited data

Results flagged for a closer look

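HIF1A met the study's criteria with neither herb, but every Roucongrong well lay below the DMSO median of its set and every Gusuibu well above it, positions that 15.9% and 12.2% of the panel shared. The log2 fold changes were -0.32 and 0.26, and with DMSO wells from the other sets as controls 0.40 and -0.05. The difference between them was not tested. The DMSO wells of these sets themselves differed in HIF1A by 0.67 on the log2 scale.

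For ARNT, every Yinyanghuo well lay above the DMSO median of its set and every Gusuibu well below it, as for 11.2% and 16.9% of the panel. The log2 fold changes were 1.24 and -1.56, and the difference was not tested. The counts behind them were 6, 7 and 16 in the Yinyanghuo wells and 3, 4 and 0 in the Gusuibu wells.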

How the results depend on the processing

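Recomputed under the alternatives, 216 values of the trio, of gene counts and of correlations were classed as kept and 15 as moved. A further 7 (of VEGFA between DMSO sets and of 1 correlation) were classed as turned in sign, and 1 newly passed the threshold. Herb values of the trio that changed sign are not among the 7, so these classes do not count every change of sign. As treated wells were left out, ARNT with Roucongrong ran from -0.59 to 0.38. VEGFA ran from -0.07 to 0.22 with Roucongrong and from -0.44 to 0.38 with Yinyanghuo. In the same classes, single pathway genes and list counts had 426 values kept and 115 no longer meeting the criteria. Another 32 moved and 2 turned sign. With DMSO wells from the other sets as controls, HIF1A gave 0.40 with Roucongrong, -0.49 with Yinyanghuo and -0.0540 with Gusuibu. The number of genes that met the criteria with Roucongrong, 41, was 26 with DESeq2, 21 with a mean count of at least 5 and 19 with filterByExpr, and 24 to 54 as treated wells were left out. With Gusuibu, 38 became 21, 19 and 20 in that order, 24 in 1 fit of all wells, and 27 to 42 as wells were left out; with Yinyanghuo, 60 became 46 to 72. With RLE scaling the share of these calls that were higher was 63.5% in place of 51.7% with Yinyanghuo and 91.9% in place of 81.6% with Gusuibu. The difference of VEGFA between Roucongrong and Yinyanghuo DMSO wells, 0.02, turned to -0.0432 with RLE, -0.0435 with DESeq2, -0.0804 with total counts, -0.0950 with a mean count of at least 5 and -0.0991 with filterByExpr. The correlation of HIF1A with VEGFA in the Yinyanghuo DMSO wells, -0.07, turned to 0.13 with RLE and 0.0276 with total counts. As wells were left out, NCF1 with Roucongrong ran from -1.33 (without well 3) to 5.07. ELMO1 with Yinyanghuo, which had no well above the floor, ran from -1.01 (without well 2) to 3.47. filterByExpr dropped ARNT from the Roucongrong set and from the DMSO wells, where it has no value.

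The well numbers are shared between groups, but no label says that they pair wells. Same-numbered treated and DMSO wells had median correlations of -0.14, -0.06 and -0.07 in the 3 sets, and differently numbered ones -0.12, -0.02 and 0.04. Between DMSO sets, same-numbered wells had 0.10, 0.25 and 0.16, and differently numbered ones -0.00429, -0.0113 and -0.0178. By these medians, DMSO wells of the same number were somewhat more alike. With the number as a replicate block, 26 genes met the criteria with Roucongrong, 37 with Yinyanghuo and 22 with Gusuibu. In these herb fits, DMSO wells whose number no treated well shared add nothing to the comparison, so most controls drop out. ARNT met them with no herb, at 1.19 (SE 0.82) with Yinyanghuo and -1.39 (SE 0.80) with Gusuibu. The block made the VEGFA difference between Roucongrong and Gusuibu DMSO wells 0.22 (adjusted p = 0.0191 by edgeR), and 51 genes differed between Gusuibu and Yinyanghuo DMSO wells in place of 24. Without DMSO well 14, chosen after seeing the data as the highest in VEGFA in a pair of sets, VEGFA gave 0.14, 0.12 and 0.49 with Roucongrong, Yinyanghuo and Gusuibu. Depth limits ARNT most: 3 counts are 63.9 to 212 CPM in the treated wells.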

Other observations

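CDH2 and VIM fell with Gusuibu. CDH2, the N-cadherin found in proximal tubule cells, fell by 0.58 (SE 0.10; adjusted p = 0.00239 by edgeR) and VIM, the filament protein vimentin, best known from mesenchymal cells, by 0.40 (SE 0.10; adjusted p = 0.0187 by edgeR) on the log2 scale. Both falls are under the fold criterion. With Yinyanghuo, VIM gave -0.52 (SE 0.17; adjusted p = 0.0702 by edgeR) and the leukocyte integrin ITGB2 rose (0.98, SE 0.43; edgeR p = 0.0323, adjusted p = 0.187). ITGB2 had 18, 2 and 25 counts there against 3 to 22 in the DMSO wells, and 1 treated well lay below the DMSO median. As treated wells were left out, its value ran from 0.65 to 1.35.

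DMSO wells with the same number in different sets were compared after the data were seen. For ARNT, Roucongrong and Gusuibu wells of the same number had r = 0.61 (adjusted p = 0.0756, permutation) and rho = 0.78 (adjusted p = 0.00495, permutation) over 16 numbers and 9 relations, and r = 0.70 without 2 wells. The other pairs of sets gave -0.39 and 0.04 for ARNT. For VEGFA, r was 0.59 between Roucongrong and Yinyanghuo and 0.56 between Yinyanghuo and Gusuibu (adjusted p = 0.0756 each, permutation), and the first was 0.13 without 2 wells. What the well numbers stand for is not stated.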
